A study of Homo sapiens with 6 samples.

Results

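The 10 genes described here make lipoic acid, attach it to enzymes, or encode the mitochondrial proteins that carry or recycle it: FDX1, LIAS, LIPT1, LIPT2, GCSH, DLAT, DLST, DBT, DLD and PDHX. They were chosen by symbol for their place in the lipoylation pathway that cuproptosis acts on, and all 10 were found among the 17280 genes of the deposited table. Their RNA was measured in CAL-27, an established human line from a tongue squamous cell carcinoma, over 6 libraries of cells cultured as floating spheres, which are used to enrich for stem-like cells. The CON group holds 3 libraries described as normal controls. The LF3 group holds 3 libraries titled LF3, a small molecule that keeps beta-catenin from binding TCF4, and the series text gives an exposure of 24 h. The treatment field of those 3 libraries instead names elesclomol-Cu for 24 h, a copper carrier with copper, and groups here follow the titles. No dose is given in the labels, all libraries come from 1 line, and no label says whether the 3 replicates were separate cultures, so the p-values reflect library-to-library spread that may be technical.

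Lipoic acid is a sulfur-containing cofactor that is built in place on its carrier proteins inside the mitochondrion. Mitochondrial fatty acid synthesis supplies an octanoyl chain, LIPT2 moves it to the glycine cleavage protein GCSH, and LIAS inserts sulfur from its iron-sulfur clusters with electrons that pass through the ferredoxin FDX1. LIPT1 then hands the lipoyl group from GCSH to the core (E2) subunits DLAT, DLST and DBT of the pyruvate, 2-oxoglutarate and branched-chain ketoacid dehydrogenases, and to PDHX, which tethers DLD to the pyruvate dehydrogenase core. DLD is the shared E3 enzyme that reoxidizes the lipoyl arm. In cuproptosis, copper binds lipoylated proteins such as DLAT and they aggregate, and FDX1 reduces the copper that elesclomol carries in.

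The lipoyl group sits on a lysine, and the coding sequence around that lysine is given here for the 5 lipoyl-bearing members. Each 33-base stretch below comes from the protein-coding GENCODE 29 (GRCh38) transcript of the gene with the longest open reading frame, 5′ to 3′, with the codon of the lysine in capitals. The lysine position is counted from the first residue of the precursor protein, as found by translating the transcript and searching for a short residue pattern. The pattern for DLAT, PDHX, DLST and DBT required an aspartate before the lysine. GCSH had a separate pattern, which required a valine there.
DLAT, lysine 132: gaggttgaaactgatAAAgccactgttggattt
DLAT, lysine 259: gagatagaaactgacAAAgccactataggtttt
PDHX, lysine 97: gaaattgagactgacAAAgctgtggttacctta
DLST, lysine 110: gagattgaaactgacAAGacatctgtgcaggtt
DBT, lysine 105: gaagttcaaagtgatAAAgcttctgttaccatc
GCSH, lysine 107: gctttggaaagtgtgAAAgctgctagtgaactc
DLAT carries 2 such lysines and the other carriers 1 each. Against the DLAT stretch at lysine 132, the second DLAT stretch matched at 27 of 33 bases, DBT at 23, DLST at 22, PDHX at 21 and GCSH at 19. The 4 stretches of DLAT and PDHX and DBT have an AAA codon at the lysine, as does GCSH, while DLST has AAG. The aspartate codon before the lysine in the other 4 genes, and its absence in GCSH, were set by the search patterns. Residues that the patterns required also enter the counts of matching bases.

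Expression is given in TPM, a gene's share of the transcripts after correction for its length, so levels can be set beside each other between genes. Sequencing depth cannot be read from TPM, and values therefore carry no counting interval. A log2 fold change is the difference of mean log2(TPM + 1), LF3 minus CON, ± its limma standard error, and a gene is called when its Benjamini-Hochberg adjusted p over 12195 tested genes (a mean of at least 1 TPM) is under 0.05. Most genes of the table differed between the groups: 53.2% of tested genes were called higher in LF3 and 32.3% lower, and 86.2% had groups that did not overlap. Over all tested genes the median of the log2 fold changes was 0.24 as deposited, -0.0055 after median-ratio scaling (each library divided by its median ratio to the geometric mean of every gene), and 0.027 after quantile normalization, so a member at 0 as deposited is below most genes. Squamous and epithelial markers summed to 1187 to 1211 TPM in CON against 1691.85 to 1724.86 TPM in LF3, but not all of them moved one way: KRT5 went from 102 to 454 TPM and SFN from 339 to 608 TPM, KRT17 went from 200.01 to 58.8 TPM, and KRT14 lay under 1 TPM. Of 7 tested, 5 were called higher and 1 lower as deposited, 3 and 3 after median-ratio scaling, and 2 and 4 after quantile normalization. The 4 immune markers in the table summed to 1.42 to 2.21 TPM in CON against 2.04 to 2.72 TPM in LF3, and the 8 stromal and endothelial markers to 12.6 to 13.8 TPM and 11.4 to 12.6 TPM. PTPRC, the pan-leukocyte marker, was at 0.02, 0 and 0.02 TPM in CON and at 0 in all LF3 libraries. CD14, the only immune marker tested, averaged 0.693 TPM in CON against 1.99 TPM in LF3 (0.82 ± 0.13, limma adjusted p = 1.19e-04). It was called higher as deposited and after both scalings. LYZ, under the filter, went the other way, with means of 1.14 TPM in CON and 0.317 TPM in LF3. CDH5, an endothelial cadherin, averaged 0.110 TPM in CON against 6.19 TPM in LF3. The other tested stromal and endothelial markers were called lower, COL1A1 with means of 9.27 and 4.31 TPM and LUM with means of 2.52 and 0.620 TPM. Their part in the results was not tested.

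All 10 members passed the filter on low values. LF3 libraries held more RNA of 6 members (GCSH, DLAT, DLD, FDX1, LIPT2 and DBT) and less of 1 (PDHX), while LIAS, LIPT1 and DLST were not called. These counts, 60% higher and 10% lower, stand beside 53.2% and 32.3% of all tested genes. The groups of 7 members did not overlap, 70% beside 86.2% of all tested genes. After median-ratio scaling 5 members were called higher and 3 lower, where 42.6% and 42.7% of all tested genes were. After quantile normalization the counts were again 5 and 3, beside 43.9% and 41.4%. The members' median log2 fold change was 0.46 as deposited, 0.23 after median-ratio scaling and 0.27 after quantile normalization.

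**Figure D1:**
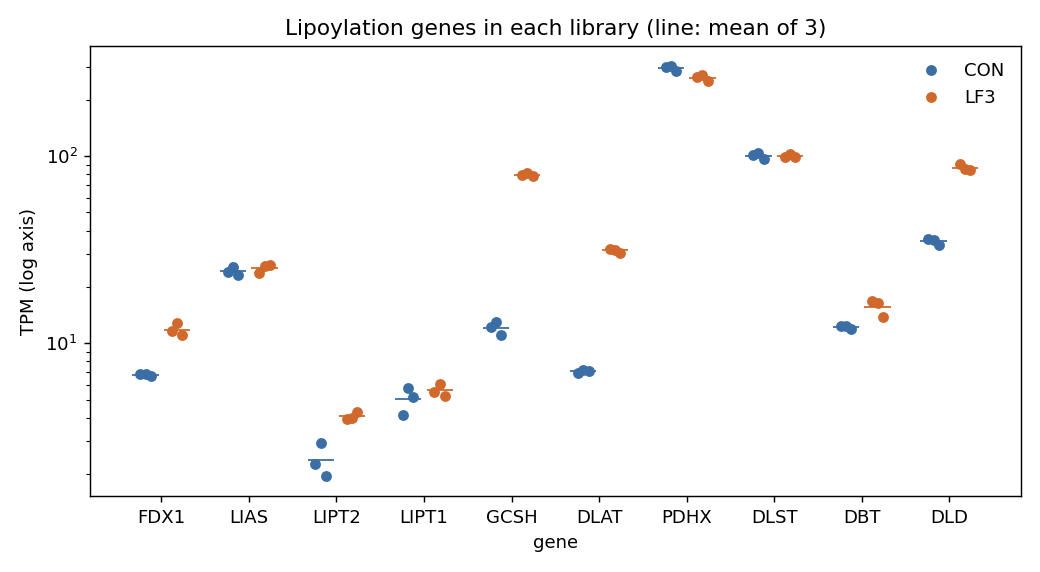
TPM of each of the 10 genes (log axis) in the 3 CON and the 3 LF3 libraries, one point per library, with a line at the mean of each group. GCSH, DLAT and DLD are separated most widely between groups, while LIAS, LIPT1 and DLST overlap.

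Of the enzymes that make and move the lipoyl group, FDX1 and LIPT2 rose, and LIAS and LIPT1 were not called. FDX1, the ferredoxin, stood at 6.84, 6.84 and 6.66 TPM in CON and at 11.7, 12.8 and 11.1 TPM in LF3. Every LF3 library was above every CON library, by a log2 fold change of 0.72 ± 0.073 (limma adjusted p = 3.23e-06). LIPT2, the octanoyl transferase that starts the pathway, had 2.27, 2.93 and 1.96 TPM in CON against 3.96, 4 and 4.28 TPM in LF3. It was the least abundant member in both groups, and its groups did not overlap (0.59 ± 0.11, limma adjusted p = 4.62e-04).

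LIAS, the radical enzyme that inserts the sulfur atoms, stood at 24.2, 25.65 and 23.2 TPM in CON and at 23.8, 25.95 and 26.25 TPM in LF3. These groups overlapped, and the log2 fold change was 0.056 ± 0.061 (limma adjusted p = 0.403). The direction of LIAS depends on the scaling: it was called lower after median-ratio scaling (-0.21, adjusted p = 0.0101) and after quantile normalization (-0.27, adjusted p = 0.00238). LIPT1, which transfers lipoyl groups from GCSH to the E2 subunits, stood at 4.14, 5.78 and 5.16 TPM in CON and at 5.47, 6.09 and 5.24 TPM in LF3. CON replicate 1 was the lowest of the 6, the others lay within 5.16 to 6.09 TPM, and the log2 fold change was 0.14 ± 0.11 (limma adjusted p = 0.252). LIPT1 changed sign after median-ratio scaling (-0.092, adjusted p = 0.417).

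GCSH, which both carries the lipoyl group within the glycine cleavage system and serves as the substrate on which it is assembled, had the highest rise among the members. It stood at 12.3, 12.9 and 11.1 TPM in CON and at 79.0, 81.0 and 78.4 TPM in LF3. The LF3 mean was 6.57 times the CON mean, with a log2 fold change of 2.62 ± 0.060 (limma adjusted p = 2.53e-11). In CON 42.3% of tested genes had a lower mean than GCSH, and in LF3 83.2% did. The RefSeq gene table lists 6 pseudogenes named after GCSH, 2 after FDX1 and 1 each after LIPT1 and DLST, and reads shared with such copies cannot be told apart.

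Besides DLD, described with the dehydrogenases, glycine cleavage uses AMT and GLDC. AMT, the aminomethyltransferase of the system, had 5.21, 4.86 and 5.82 TPM in CON against 0.50, 0.13 and 0.61 TPM in LF3, a log2 fold change of -2.17 ± 0.14 (limma adjusted p = 6.05e-08). Its CON mean was 12.8 times its LF3 mean, a ratio that rests on LF3 values under 1 TPM and is therefore imprecise. GLDC, the glycine decarboxylase, averaged 0.123 ± 0.0850 TPM in CON against 0.167 ± 0.125 TPM in LF3 (SD, n = 3), under the filter and not tested. SHMT2, the mitochondrial enzyme that interconverts serine and glycine, stood at 207 ± 8.51 TPM in CON against 245 ± 4.89 TPM in LF3, its log2 fold change being 0.24 ± 0.039 that lost its call after both scalings (-0.029 and 0.011). Of GCSH, AMT and SHMT2, GCSH alone was called higher as deposited and after both scalings.

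The subunits of the pyruvate dehydrogenase core moved apart. DLAT, its acetyltransferase core subunit, stood at 6.96, 7.21 and 7.08 TPM in CON and at 32.0, 31.7 and 30.55 TPM in LF3, with means 4.44 times apart and a log2 fold change of 2.004 ± 0.058 (limma adjusted p = 1.22e-10). PDHX, the E3-binding subunit of that core, stood at 299.9, 301.7 and 286 TPM in CON and at 264, 272 and 252 TPM in LF3. All LF3 values of PDHX lay under all CON values, by a log2 fold change of -0.17 ± 0.039 (limma adjusted p = 0.00169), and the fall was -0.44 after median-ratio scaling and -0.39 after quantile normalization. PDHX was the most abundant member in both groups, with 96.7% of tested genes under its mean in CON. In the RefSeq table PDHX overlaps APIP, DLAT overlaps PIH1D2, LIPT2 overlaps LIPT2-AS1, and LIPT1 overlaps MITD1, whose CON mean was 80.5 TPM beside 5.03 TPM for LIPT1, and strandedness is unknown (not given in the sources used here). DBT overlaps RPL23AP90 and BRI3P1, DLAT also overlaps PPIHP1 and RNU6-893P, and PDHX also overlaps MIR1343. Reads of such overlaps cannot be told apart.

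The core subunits of the other dehydrogenases changed less than DLAT. DLST, the succinyltransferase of the 2-oxoglutarate dehydrogenase, stood at 101, 103 and 96.65 TPM in CON and at 98.9, 102.9 and 98.6 TPM in LF3. These values overlapped, with a log2 fold change of -0.0043 ± 0.041 (limma adjusted p = 0.926). DLST was called lower after median-ratio scaling (-0.28, adjusted p = 8.96e-05) and after quantile normalization (-0.32, adjusted p = 1.53e-05). DBT, the transacylase core of the branched-chain ketoacid dehydrogenase, had 12.3, 12.4 and 11.9 TPM in CON against 16.8, 16.4 and 13.75 TPM in LF3. LF3 replicate 3 lay closest to CON, and the log2 fold change of 0.33 ± 0.079 (limma adjusted p = 0.00241) lost its call after median-ratio scaling (0.075, adjusted p = 0.314) and quantile normalization (0.025, adjusted p = 0.724).

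DLD, the flavoprotein that all these complexes and the glycine cleavage system use to reoxidize the lipoyl arm, rose. It stood at 36.1, 35.5 and 33.7 TPM in CON and at 91.1, 85.2 and 84.2 TPM in LF3. The ratio of means was 2.47 and the log2 fold change 1.28 ± 0.049 (limma adjusted p = 9.71e-10), with no overlap between groups.

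The order of the levels shifted in the middle of the list. In CON the order from high to low was PDHX, DLST, DLD, LIAS, DBT, GCSH, DLAT, FDX1, LIPT1 and LIPT2, and of the neighbours in this order only DBT and GCSH overlapped. DLAT and FDX1 were separated narrowly there, the lowest DLAT value being 6.96 TPM and the highest FDX1 value 6.84 TPM. In LF3 GCSH and DLAT had moved above LIAS and DBT, and the order was PDHX, DLST, DLD, GCSH, DLAT, LIAS, DBT, FDX1, LIPT1 and LIPT2, with no overlap between neighbours.

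Summed over the 5 lipoyl-bearing genes (PDHX, DLST, DBT, DLAT and GCSH), the level was 428 ± 13.1 TPM in CON against 489 ± 15.4 TPM in LF3 (SD, n = 3). PDHX made up 69.2 ± 0.214% of that sum in CON and 53.7 ± 0.369% in LF3. GCSH went from 2.82 ± 0.135% to 16.2 ± 0.268% and DLAT from 1.66 ± 0.0538% to 6.42 ± 0.119%. DLST gave 23.5 ± 0.123% in CON and 20.5 ± 0.343% in LF3, and DBT 2.85 ± 0.0182% and 3.19 ± 0.264%. These are shares of transcripts, not of protein or of lipoyl groups.

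**Figure D2:**
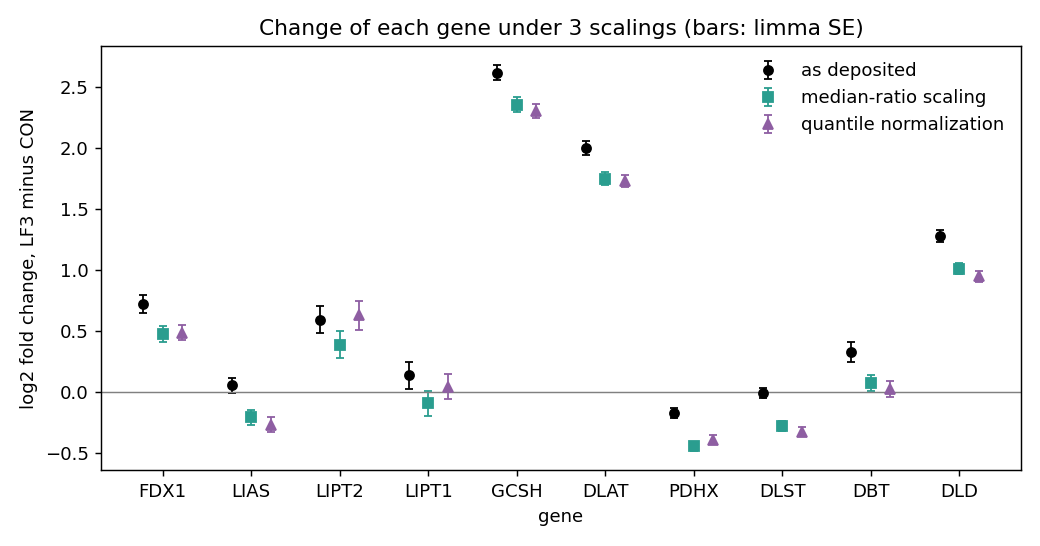
Log2 fold change of LF3 against CON for each gene, with bars for the limma standard error, as deposited, after median-ratio scaling and after quantile normalization. GCSH, DLAT, DLD, FDX1 and LIPT2 lie above 0 and PDHX below 0 in all 3, while LIAS moves from 0.056 to negative values and DBT moves towards 0.

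A ratio within a library is not altered by multiplying that library by a factor, as median-ratio scaling does, although quantile normalization can alter it. The ratios of 14 pairs were compared on the deposited values. The groups did not overlap in 13 pairs, beside 86.2% of single tested genes. No such share was computed over other pairs of genes, so whether the count is particular to these pairs is unknown. Each of those 13 gave p = 0.1 in a two-sided exact permutation test, the smallest p that 3 libraries against 3 can give (0.108 after Benjamini-Hochberg adjustment over the 14), so no pair could pass the threshold in this design. The pairs share genes and are not independent of each other.

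DLAT per PDHX, which together form the core of pyruvate dehydrogenase, had the ratios 0.0232, 0.0239 and 0.0247 in CON and 0.121, 0.117 and 0.121 in LF3. PDHX transcripts thus outnumbered DLAT transcripts 41.8 ± 1.33 times in CON and 8.36 ± 0.189 times in LF3 (SD, n = 3), and the ratio of DLAT to PDHX rose 4.998-fold. DLAT also gained on its E1 partner PDHA1, from 0.154 ± 0.00348 to 0.345 ± 0.00875. Against the other core subunits, DLAT went from 0.0706 ± 0.00240 to 0.314 ± 0.00860 of DLST, and from 0.581 ± 0.0158 to 2.02 ± 0.175 of DBT. DLAT was thus below DBT in every CON library and above it in every LF3 library.

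In the other complexes the core subunit was set against an E1 partner. DLST per OGDH, the E1 of the 2-oxoglutarate dehydrogenase, went from 2.59 ± 0.182 to 1.35 ± 0.0372, OGDH itself being higher in LF3. DBT per BCKDHA, an E1 subunit of the branched-chain complex, went from 0.112 ± 0.00797 to 0.242 ± 0.0344, BCKDHA itself being lower. BCKDHB, the other E1 subunit, was not among the pairs, and its LF3 mean was 1.28 times its CON mean, as for DBT (log2 fold changes 0.35 and 0.33). Like DBT, BCKDHB lost its call after median-ratio scaling (0.089, limma adjusted p = 0.299) and after quantile normalization (0.040, limma adjusted p = 0.648). DLD per DLAT fell from 4.96 ± 0.221 to 2.76 ± 0.0781, while DLD per DLST rose from 0.349 ± 0.00684 to 0.867 ± 0.0478.

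Among the enzymes that build the cofactor, the carrier gained on the synthase. GCSH per LIAS was 0.509, 0.504 and 0.477 in CON and 3.32, 3.12 and 2.99 in LF3, so GCSH transcripts were fewer than those of LIAS in all CON libraries and more in all LF3 libraries. GCSH per DLD rose from 0.344 ± 0.0181 to 0.917 ± 0.0434. FDX1 per LIAS rose from 0.279 ± 0.0108 to 0.468 ± 0.0400 and LIPT2 per LIAS from 0.0975 ± 0.0152 to 0.161 ± 0.00624. FDX1 per FDX2, the other mitochondrial ferredoxin, stood at 0.344 ± 0.0222 in CON and 0.414 ± 0.0331 in LF3. LIPT1 per LIAS was the pair whose groups overlapped (0.206 ± 0.0303 and 0.221 ± 0.0189, exact permutation p = 0.5), and they separated once LF3 replicate 3 was left out. The log2 change of this ratio was 0.11 over all libraries and -0.020 without CON replicate 1.

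**Figure D3:**
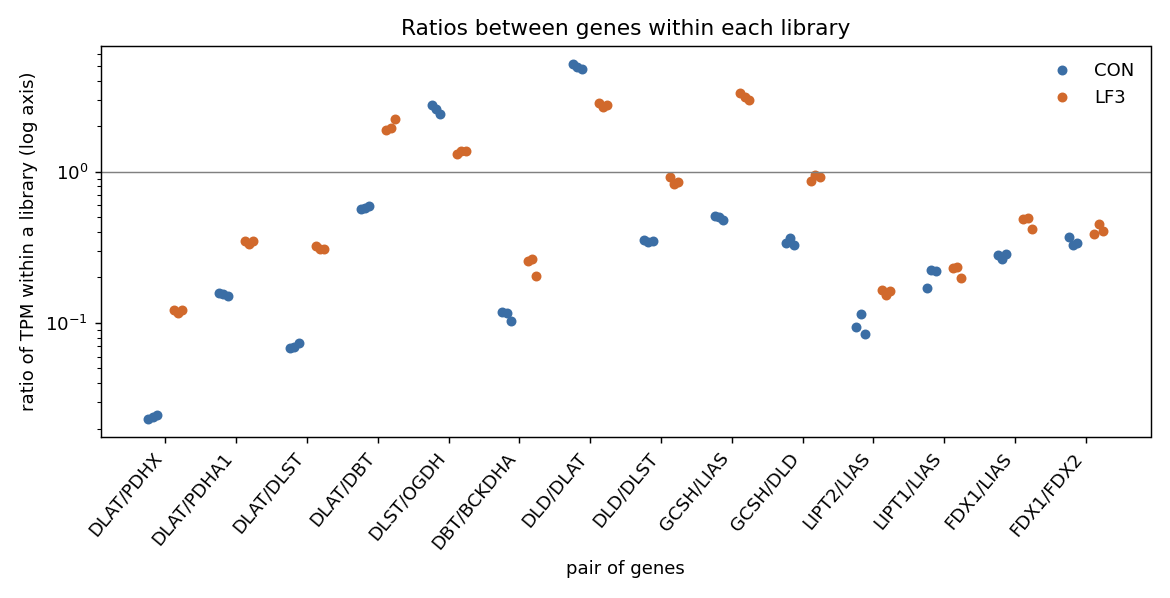
Ratio of TPM between the genes of each of 14 pairs (log axis), one point per library, with a line at a ratio of 1. GCSH/LIAS and DLAT/DBT cross 1 between CON and LF3, and LIPT1/LIAS is the pair in which the groups overlap.

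The E1 subunits and regulators of pyruvate dehydrogenase had 6 of 10 tested genes higher and 3 lower (5 and 5 after median-ratio scaling, 3 and 5 after quantile normalization). These shares, 60% and 30%, are near the 53.2% and 32.3% of all tested genes. PDHA1, the alpha subunit of E1, stood at 46.0 ± 1.49 TPM in CON against 91.0 ± 3.77 TPM in LF3 (0.97 ± 0.047, limma adjusted p = 6.52e-09), and PDHB, the beta subunit, had 0.92 ± 0.048. The phosphatase genes that reactivate E1 went in opposite directions, with a log2 fold change of 1.03 ± 0.076 for PDP1 and -0.94 ± 0.057 for PDP2. Of the kinases that switch E1 off, PDK1 had -0.77 ± 0.058 and PDK3 -0.43 ± 0.067, and PDK2 had 0.47 ± 0.084 with its call lost after quantile normalization (0.18, adjusted p = 0.0526). The pyruvate carrier gene MPC1 had 0.46 ± 0.066 and lost its call after quantile normalization (0.085, adjusted p = 0.262), and MPC2 had 0.012 ± 0.040 (adjusted p = 0.774) and was called lower after both scalings (-0.26 and -0.33).

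For the 2-oxoglutarate and 2-oxoadipate dehydrogenases, 2 of 4 tested genes were higher and 0 lower (2 and 2 after median-ratio scaling), where 53.2% and 32.3% of all tested genes were called (42.6% and 42.7% after that scaling). OGDH stood at 38.9 ± 1.91 TPM in CON against 74.2 ± 1.69 TPM in LF3 (0.92 ± 0.049, limma adjusted p = 1.45e-08), and MRPS36, which links the E3 to the 2-oxoglutarate complex, had 0.79 ± 0.078. Branched-chain genes had 4 of 6 higher and 2 lower (3 and 2 after median-ratio scaling), or 66.7% and 33.3% beside the same 53.2% and 32.3%. BCAT1, a cytosolic branched-chain aminotransferase, stood at 4.65 ± 0.170 TPM in CON against 20.1 ± 1.40 TPM in LF3 (1.90 ± 0.073, limma adjusted p = 1.04e-09), and its mitochondrial counterpart BCAT2 had 0.76 ± 0.052. BCKDHA had -0.74 ± 0.051, and the phosphatase gene PPM1K, whose product activates the complex, had -0.91 ± 0.098. BCKDK, the kinase that opposes it, had 0.50 ± 0.044.

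The next lists hold genes that supply the octanoyl chain, the electrons, the iron-sulfur clusters and the S-adenosylmethionine that LIAS uses. They are read against the 53.2% of all tested genes called higher and 32.3% lower (42.6% and 42.7% after median-ratio scaling). Of the mitochondrial fatty acid synthesis genes, 5 of 7 tested were higher and 1 lower (3 and 2 after median-ratio scaling, where the 42.9% higher is at the share of all genes). MCAT, the malonyl transferase, stood at 7.79 ± 0.635 TPM in CON against 31.8 ± 0.652 TPM in LF3 (1.90 ± 0.068, limma adjusted p = 5.52e-10). MECR, the enoyl reductase, had 1.70 ± 0.075, and NDUFAB1, the acyl carrier protein, 1.12 ± 0.040. OXSM, the ketoacyl synthase of the same route, had -0.065 ± 0.062 (adjusted p = 0.343) and was called lower after both scalings (-0.32 and -0.36).

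Of the electron suppliers, FDXR, the reductase of both ferredoxins, had 0.48 ± 0.050 and FDX2 0.51 ± 0.063, and both kept their call under both scalings. Iron-sulfur supply genes had 11 of 14 higher and 2 lower (9 and 3 after median-ratio scaling), among them the chaperone HSPA9 at 1.47 ± 0.034 and the iron carrier SLC25A28 at 1.09 ± 0.093. The late factors that pass clusters on to LIAS did not move alike. BOLA3 stood at 117 ± 1.74 TPM in CON against 225 ± 10.8 TPM in LF3, while NFU1 stood at 81.7 ± 4.90 TPM in CON against 73.5 ± 4.13 TPM in LF3 (-0.15 ± 0.056, limma adjusted p = 0.0269). The call of NFU1 was lost without CON replicate 1 (adjusted p = 0.101) or 2 (0.0839) and without LF3 replicate 2 (0.0731) or 3 (0.0905). That call was also lost with no filter (limma adjusted p = 0.0509) and in limma without the trend (0.0614). SLC25A37, another iron carrier, had -1.05 ± 0.037.

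All 3 genes of S-adenosylmethionine supply, which LIAS consumes, were higher under the 3 scalings. MAT2A, the synthetase, stood at 38.2 ± 0.734 TPM in CON against 202 ± 3.69 TPM in LF3 (2.38 ± 0.039, limma adjusted p = 2.91e-12). SLC25A26, which carries the compound into mitochondria, had 1.12 ± 0.079, and MAT2B 0.64 ± 0.068. The sirtuin genes SIRT4, known to remove lipoyl groups, and SIRT3 had 0.21 ± 0.11 (adjusted p = 0.0911) and 0.19 ± 0.079 (limma adjusted p = 0.0472). The call of SIRT3 was lost after both scalings (-0.066 and -0.11) and without CON replicate 2 or 3 or LF3 replicate 1 or 2 (adjusted p = 0.172, 0.0819, 0.184 and 0.0515). That call was also lost with no filter (limma adjusted p = 0.0781) and with array weights (0.0574). SIRT4 was called higher after quantile normalization (0.28, limma adjusted p = 0.0443), with array weights (0.0322) and without CON replicate 3 (0.0140).

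The citrate cycle genes outside the lipoylated complexes had 13 of 14 tested genes higher and 0 lower (11 and 2 after median-ratio scaling). That is 92.9% higher beside 53.2% of all tested genes, of which 32.3% were lower. After median-ratio scaling it is 78.6% higher and 14.3% lower beside 42.6% and 42.7%. Their median log2 fold change was 0.78, where the median of all tested genes was 0.24. FH, fumarase, stood at 53.5 ± 0.382 TPM in CON against 178 ± 7.19 TPM in LF3 (1.71 ± 0.041, limma adjusted p = 3.58e-11), SUCLG1 had 1.17 ± 0.039 and IDH3B 1.12 ± 0.037. DLST, a subunit of a cycle enzyme, thus had a lower log2 fold change (-0.0043) than 13 of these 14 genes, IDH3G (-0.022 ± 0.042) being the exception. Of 6 other genes tied to cuproptosis, 1 was higher and 4 lower (0 and 4 after median-ratio scaling), so 66.7% were lower beside 32.3% of all tested genes (42.7% after that scaling). The copper exporter gene ATP7B had -0.67 ± 0.10, the copper importer gene SLC31A1 -0.56 ± 0.041 and CDKN2A -0.42 ± 0.051.

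**Figure D4:**
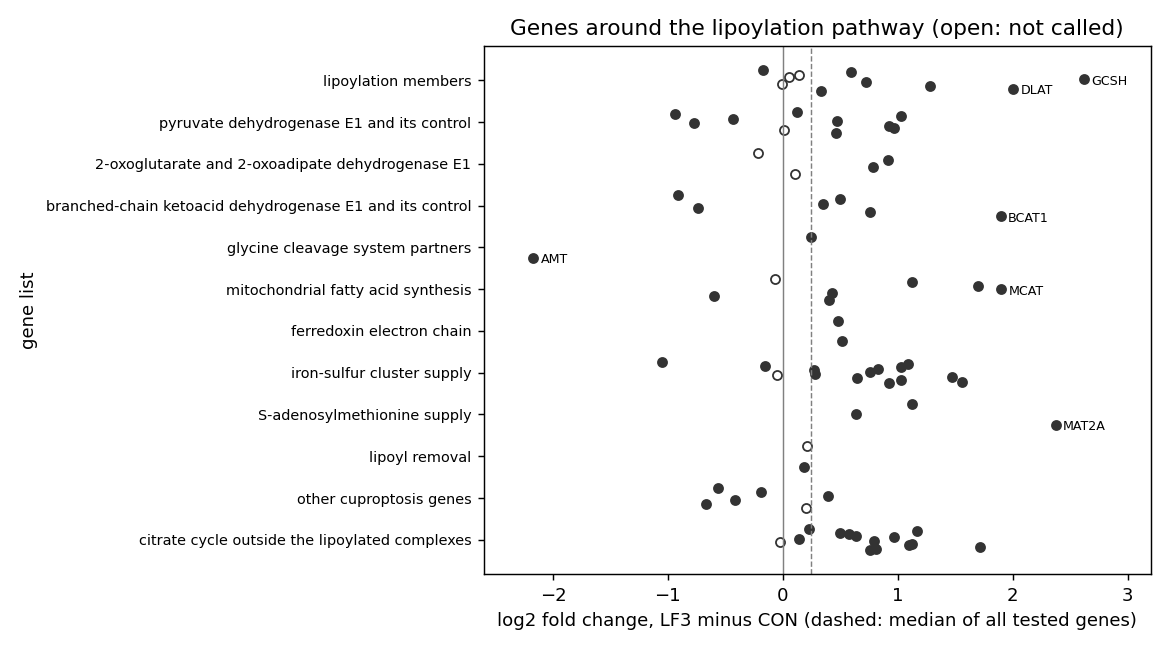
Log2 fold change of LF3 against CON for each tested gene of the lists around lipoylation, with filled points for called genes and open points for others; the dashed line is the median of all tested genes, 0.24. GCSH and MAT2A lie farthest right and AMT farthest left.

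PDHX stands on chromosome 11 between abundant genes. The genes nearest to it in RefSeq order were APIP, a methionine salvage enzyme, on one side and CD44, a cell surface receptor for hyaluronan, on the other. APIP stood at 113 ± 6.23 TPM in CON against 312 ± 7.09 TPM in LF3, and CD44 at 1476.5 ± 20.2 TPM in CON against 627 ± 16.0 TPM in LF3 (log2 fold changes 1.46 ± 0.044 and -1.23 ± 0.030, limma adjusted p = 1.71e-10 and 3.76e-11). Beyond APIP, EHF had 313 ± 11.9 TPM in CON and CAT, catalase, 390 ± 4.74 TPM. ELF5, SLC1A2 and PAMR1 in the same stretch were under 1 TPM in both groups, and FJX1 averaged 8.87 TPM in CON against 89.1 TPM in LF3. In CON PDHX, APIP, CD44, EHF and CAT each had a mean above that of at least 90.3% of tested genes, while their changes differed in sign. These neighbours were looked at after the level of PDHX had been seen.

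**Figure D5:**
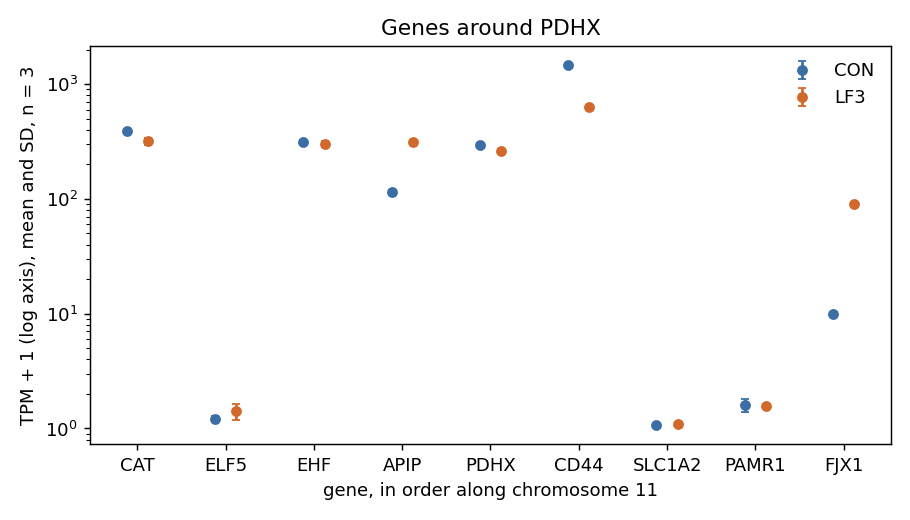
TPM + 1 (log axis, mean and SD of 3 libraries) of PDHX and the 4 genes measured on each side of it, in order along chromosome 11. APIP is higher and CD44 lower in LF3, and PDHX has means of 295.98 TPM in CON against 263 TPM in LF3.

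The tested genes whose 6-library profile lay nearest to that of GCSH, by Euclidean distance of log2(TPM + 1) after subtracting each gene's CON mean, were NSUN2 (distance 0.104), JMJD4 (0.112) and RUVBL1 (0.112). NSUN2, an RNA methyltransferase, had a log2 fold change of 2.60, JMJD4 2.62 and RUVBL1 2.65. For PDHX the nearest were RDH11 (0.0565), FXR1 (0.0616) and NMD3 (0.0643), with log2 fold changes of -0.18, -0.19 and -0.17. The profiles hold 6 libraries in only 2 conditions, so likeness here is mostly a like change.

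Promoter sequence (250 bases before to 50 after the start of each gene, RefSeq, GRCh38.p14) was matched for all 10 members and searched on both strands for 4 short motifs. The TCF/LEF letters CTTTGAT were in the promoters of 0 members and in 2.62% of all 35116 RefSeq promoters (1.73% of the 19468 promoters of measured genes), the E-box CACGTG in 0 and 7.26% (8.60%), and the NRF1 motif in 0 and 5.78% (8.02%). The ETS letters CCGGAAG were in the promoters of 3 members (FDX1, DLST and GCSH) and in 10.3% of all promoters (13.9% of those of measured genes). Those matches are shown because they fall in members that rose and in a member that did not, with the motif in capitals and 10 bases on each side, 5′ to 3′ on the strand that reads the motif.
FDX1, chr11:110429929-110429955, plus strand: tataggtcacCCGGAAGgcacgcggaa
DLST, chr14:74881884-74881910, minus strand: cggacaacaaCCGGAAGtggggcgggc
GCSH, chr16:81096564-81096590, plus strand: aacctgaggcCCGGAAGaggcagcacc
FDX1 and GCSH were called higher in LF3, while DLST had -0.0043 ± 0.041, so members with this match did not share a change. A match is a description of letters, and no binding was measured.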

How the data were processed

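Total RNA of CAL-27 spheres was sequenced as single-end reads of 50 bases on a BGISEQ500, per the labels' protocols. HISAT, Bowtie2 and GRCm38.p6 are named in the submitters' processing notes, with no role. That build is a mouse assembly, whereas the deposited gene identifiers and symbols are human, so the table carries no usable coordinates. The authors deposited TPM per gene and library, per the file headers. TPM are shares of a fixed total, so a change in abundant genes moves all others. The counting method was not given in the sources used here.

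From these values log2(TPM + 1) was fitted with limma 3.58.1 in R 4.3.3 (trend, two-sided, Benjamini-Hochberg over the 12195 genes that average 1 TPM or more), 3 LF3 against 3 CON, without a replicate block. The fit was also run on simulated data of 12195 genes, with spread taken from CON alone and only a small part of the genes altered. The share of altered genes recovered was 40% for a log2 change of 0.25, 70% for 0.5, 94% for 1 and 98% for 2. In the real comparison most genes were called, which makes the adjusted threshold less strict, so these shares do not give its recovery. Ratios used an exact permutation test in scipy 1.17.1. Named genes are all members, up to 3 called genes per list with the largest change, the 3 nearest profiles of the members with the highest rise and the largest fall, by a fixed rule, and 1 gene it names is not reported here. Other genes of the lists and all chromosomal neighbours were named after their values were seen. Members, lists and pairs were chosen with earlier results of these data known. Sequences are from GENCODE 29 transcripts and RefSeq promoters, and gene order from RefSeq. Alternatives were other pseudocounts, filters, scalings, variance settings, the block and leaving out each library. Figures used matplotlib 3.10.9.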

Additional observations from a re-analysis of the deposited data

How the results depend on the processing

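The members called higher numbered 5 to 6 over all alternatives, 5 after either scaling, where DBT lost its call, and 5 with a filter of 5 TPM, which leaves LIPT2 untested. The members called lower numbered 3 after median-ratio scaling and 3 after quantile normalization, against 1 as deposited and 1 under every other alternative. LIAS reversed to -0.21 and -0.27 under these scalings and LIPT1 to -0.092 under median-ratio scaling, while DLST ranged from -0.032 to 0.017 when a library was left out, above 0 without CON replicate 1 or 2 or LF3 replicate 1 or 3. All other members kept their direction in these alternatives, and the cause of these shifts was not tested. With the replicate number as a block, 6 members were higher and 1 lower, and no member's call changed. Same-numbered libraries deviated together only weakly (r = 0.0476, 0.106 and 0.16), and differently numbered ones had r from -0.17 to 0.0737. Values this small cannot settle whether the replicates were paired. The numbers are not treated as pairs because no label says that they pair libraries. With a pseudocount of 1 the groups again did not overlap in 13 of the 14 pairs. TPM keeps no depth, so what depth limits could not be computed. The low levels of LIPT1, LIPT2 and GLDC, and of AMT in LF3, carry the most uncertainty.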

Other observations

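Among the measured genes near DLAT on chromosome 11, TIMM8B and SDHD encode mitochondrial proteins, but neither is the nearest to it. TIMM8B, an import chaperone within 3 measured genes of DLAT, stood at 3.24 ± 0.276 TPM in CON against 48.7 ± 1.38 TPM in LF3 (log2 fold change 3.55 ± 0.068). SDHD, a subunit of succinate dehydrogenase next to it, stood at 82.7 ± 3.46 TPM in CON against 124 ± 6.63 TPM in LF3 (0.58 ± 0.050). PIH1D2 and NKAPD1, which lie between DLAT and TIMM8B, had log2 fold changes of 0.34 ± 0.13 and 0.67 ± 0.076. DIXDC1, the measured neighbour of DLAT on its other side, had 2.25 ± 0.365 TPM in CON against 1.68 ± 0.371 TPM in LF3 (-0.29 ± 0.13, limma adjusted p = 0.0618). Beyond DIXDC1, C11orf52 had 1.01 ± 0.16, and HSPB2 and CRYAB were not tested. These genes were looked at after their values had been seen.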
